A study of Homo sapiens with 10 samples.

Results

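Huh-7 and Mahlavu are human hepatocellular carcinoma cell lines, and the 2 Huh-7 libraries of the series were set against its 3 Mahlavu libraries, 5 of 10 RNA-Seq libraries in all. Members of the comparison are the genes for which every library of one line lies above every library of the other. They numbered 11335 of the 14367 genes with a mean of the line means of at least 1 FPKM (fragments per kilobase of transcript per 1e+06 mapped), out of 58302 genes listed. The Huh-7 libraries came from control cells and from cells induced with HGF, the ligand of the receptor MET, at 10 ng/ml for 48 h. The Mahlavu libraries came from mock control cells, from cells labelled as overexpressing the c-terminal of PSPC1, and from cells labelled as overexpressing an NLS mutation of PSPC1. PSPC1 is a paraspeckle protein that binds RNA and DNA. All cells grew in the same medium with serum, and the labels do not say whether an overexpressing line is 1 clone. Values below are given in these orders, as FPKM quantile-normalized over the 5 libraries. Each library is another condition, so the spread within a line is a spread between differently treated cultures, and p-values measure a difference between lines against that spread. An exact rank-sum test of 2 against 3 libraries cannot go below 0.2 two-sided. The Huh-7 libraries were deposited separately and in another form, without read counts. Cell line and deposit therefore cannot be told apart.

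Hepatocytes are held in their differentiated state by a network of transcription factors that includes HNF4A, FOXA and C/EBP proteins, which act on each other's genes and on genes for plasma proteins. Liver cancer lines range from well differentiated lines that still secrete albumin and alpha-fetoprotein to poorly differentiated lines that have lost epithelial and hepatic traits. Passage toward the second state shares features with the epithelial-mesenchymal transition, in which junction proteins fall and matrix, motility and invasion genes rise.

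Both labels were checked against markers of cell types. All 8 hepatocyte markers, among them ALB, TTR, APOA1, APOA2, SERPINA1, FGB and HNF4A, stood at 1 FPKM or more in both Huh-7 libraries, and their summed level was 12897 to 13216 FPKM. In Mahlavu, 6 of the 8 were at 0 in all 3 libraries and the sum was 7.44 to 10.5 FPKM, nearly all of it from SERPINA1, which encodes alpha-1-antitrypsin, with 7.41, 10.3 and 10.4 FPKM. The defining markers of hepatocytes, SERPINA1 apart, were thus at or near 0 in the line labelled Mahlavu. Of 5 fetal liver markers, 4 reached 1 FPKM in every Huh-7 library and 0 in every Mahlavu library. Markers of endothelium summed to 5.55 to 5.75 FPKM in Huh-7 and 0.956 to 1.76 FPKM in Mahlavu, and those of blood to 4.29 to 4.73 and 6.70 to 13 FPKM. A blood marker outside those 6, LYZ, which encodes the bactericidal enzyme lysozyme, had 471 and 463 FPKM in Huh-7 and 0.0578, 0.245 and 0 FPKM in Mahlavu. Of 5 markers of bile duct cells, 4 reached 1 FPKM in every Huh-7 library and 3 in every Mahlavu library, and the sums overlapped at 338 to 388 and 91.6 to 418 FPKM, mostly KRT19 in Huh-7 and SPP1 in Mahlavu. Neural markers summed to 2.88 to 3.74 FPKM in Huh-7 and 8.55 to 23.6 FPKM in Mahlavu. Of 8 mesenchymal markers, 5 reached 1 FPKM in every Huh-7 library and 4 in every Mahlavu library, with sums of 245 to 267 and 313 to 546 FPKM.

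The Huh-7 libraries held 16374128 and 15245935 reads on genes, as recovered from FPKM, and the Mahlavu libraries 19085682 to 22685424. The 10 most abundant genes took 8.95% and 9.21% of FPKM in Huh-7 and 5.01% to 6.01% in Mahlavu. In Mahlavu, the library labelled c-terminal of PSPC1 stood apart in base composition. Its log2 difference from mock rose with the GC content of the longest transcript (Spearman's rho 0.53 across 14347 genes of the same libraries), against −0.10 for the library of the NLS mutation and 0.00 between the Huh-7 libraries. The difference between lines fell with GC content (rho −0.25). Among the 2870 genes lowest in GC its median was 0.45, with 41.5% called higher in Huh-7 and 14.8% in Mahlavu, and among the 2870 highest in GC −0.64, with 20.8% and 49.7%. A fit with GC content and length taken out, added after the data had been seen, called 4500 genes higher in Huh-7 and 4821 in Mahlavu, and 8061 of the 9124 called genes that entered both fits kept their call.

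The lines differed far more than the libraries within them. Between any 2 libraries of different lines, the standard deviation of the log2 difference over genes was 1.85 to 1.94, against 0.24 between the Huh-7 libraries and 0.49 to 0.54 between Mahlavu libraries. From 44% to 49.6% of genes differed at least 2-fold between lines, 0.529% within Huh-7 and 4.58% to 6.29% within Mahlavu. Of 14367 genes, 5739 (39.9%) had both Huh-7 libraries above all Mahlavu libraries, and 5596 (39%) the reverse. A gap of at least 2-fold between the nearest libraries of the lines was found for 2378 genes (16.6%) higher in Huh-7 and 2425 (16.9%) higher in Mahlavu, and a gap of at least 8-fold for 570 and 489. limma on log2(FPKM + 1) called 4582 genes (31.9%) higher in Huh-7 and 4552 (31.7%) higher in Mahlavu at an adjusted p under 0.05. All 9134 called genes were among those whose libraries did not overlap. With either Huh-7 library left out, 1 library is assumed to vary like the other line, and the calls fell to 2815 and 2715 without control and to 2758 and 2571 without HGF. Shares in single gene lists below are read against these percentages, which are high in each direction. In bulk RNA, fewer cells with a transcript and less of it per cell cannot be told apart.

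**Figure D1:**
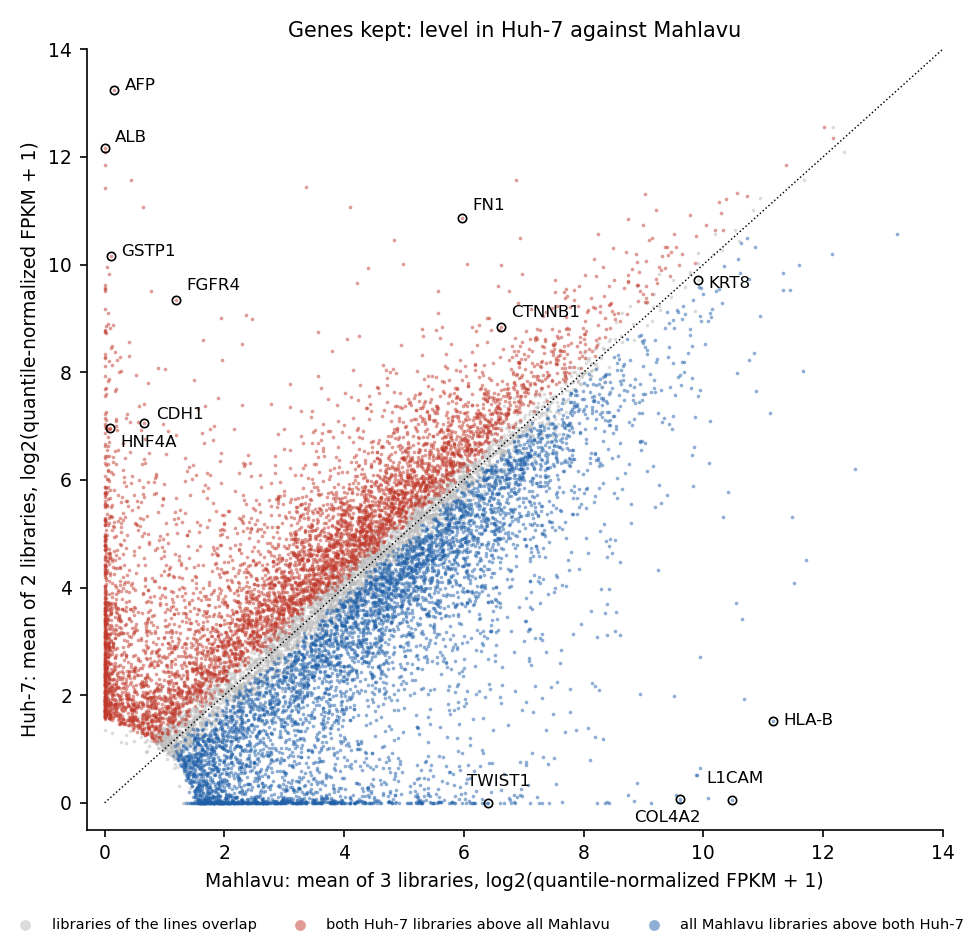
Mean level of each gene kept outside the Y chromosome, as log2(quantile-normalized FPKM + 1), in the 3 Mahlavu libraries (x axis) and the 2 Huh-7 libraries (y axis), and the dotted line marks equal levels. Red points have both Huh-7 libraries above all Mahlavu libraries, blue points the reverse, grey points overlap, and the points along both axes are genes near 0 in one line, with AFP and ALB at the top left and L1CAM and COL4A2 at the bottom right.

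Liver secretory genes led the genes higher in Huh-7. AFP, the albumin homologue of fetal liver (ENSG00000081051, GRCh38 chromosome 4, 73431138 to 73456174), had 9655 and 9655 FPKM in Huh-7 and 0.163, 0 and 0.201 FPKM in Mahlavu, the widest gap of all named genes, 12.97 on the log2 scale. Its neighbour ALB, which encodes serum albumin, had 4607 and 4607 FPKM in Huh-7 and 0, 0 and 0 FPKM in Mahlavu. Equal values in both Huh-7 libraries arise because quantile normalization gives genes of the same rank the same value. ALB had 0 reads in each Mahlavu library, where 3 reads per library are taken as the limit a count of 0 allows, so it was at least 40906-fold higher in Huh-7 (deposited FPKM, counting error only). Next were A2M, a broad protease inhibitor of plasma, with 4476 and 4263 FPKM in Huh-7 and 0, 0 and 0 FPKM in Mahlavu, and APOA2, an apolipoprotein of HDL, with 3615 and 3801 FPKM in Huh-7 and 0, 0 and 0 FPKM in Mahlavu. TF, the iron carrier transferrin, had 2824 and 2646 FPKM in Huh-7 and 0, 0 and 0 FPKM in Mahlavu. AMBP, the precursor of alpha-1-microglobulin and bikunin, had 3124 and 2944 FPKM in Huh-7 and 0.523, 0.211 and 0.378 FPKM in Mahlavu, and ITIH2, an inter-alpha-trypsin inhibitor heavy chain, differed by 9.92 ± 0.14 (SE, log2). GSTP1, the pi-class glutathione S-transferase, a cytosolic detoxifying enzyme, had 1179.8 and 1115 FPKM in Huh-7 and 0.0639, 0.161 and 0 FPKM in Mahlavu. The remaining genes of these 12 were APOA1, AHSG, GPC3 and RBP4, whose log2 differences lay between 9.51 and 9.75.

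Genes with the widest gaps in the other direction were of several kinds. L1CAM, a cell adhesion molecule best known from neurons (ENSG00000198910, chromosome X, 153861514 to 153909223), had 0.0337 and 0.0404 FPKM in Huh-7 and 1047, 1835 and 1493 FPKM in Mahlavu, a gap of 9.98 on the log2 scale. PFKP, the platelet form of the glycolytic enzyme phosphofructokinase, had 0.101 and 0.0307 FPKM in Huh-7 and 738, 1509.6 and 1136 FPKM in Mahlavu. HLA-B, a classical MHC class I heavy chain, had 1.52 and 2.29 FPKM in Huh-7 and 2362, 2154 and 2394 FPKM in Mahlavu, though reads of HLA genes are hard to tell from one another because they are so alike. COL4A2, a basement membrane collagen chain, had 0.048 and 0.0544 FPKM in Huh-7 and 675, 827 and 840.2 FPKM in Mahlavu. GPC1, a cell surface proteoglycan, had 0.408 and 0.437 FPKM in Huh-7 and 861, 942 and 1024 FPKM in Mahlavu, and MSN, which encodes moesin and links actin to the membrane, had 0.209 and 0.0222 FPKM in Huh-7 and 598, 892 and 777 FPKM in Mahlavu. That all 3 Mahlavu libraries stood above both Huh-7 libraries for each of them follows from how these genes were chosen. MMP2, COL6A2, GPNMB, SNCG, BST2 and the RNA IGFL2-AS1 completed the 12. The kit does not mark strand, so reads of IGFL2-AS1 and of a gene on the opposite strand cannot be told apart.

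**Figure D2:**
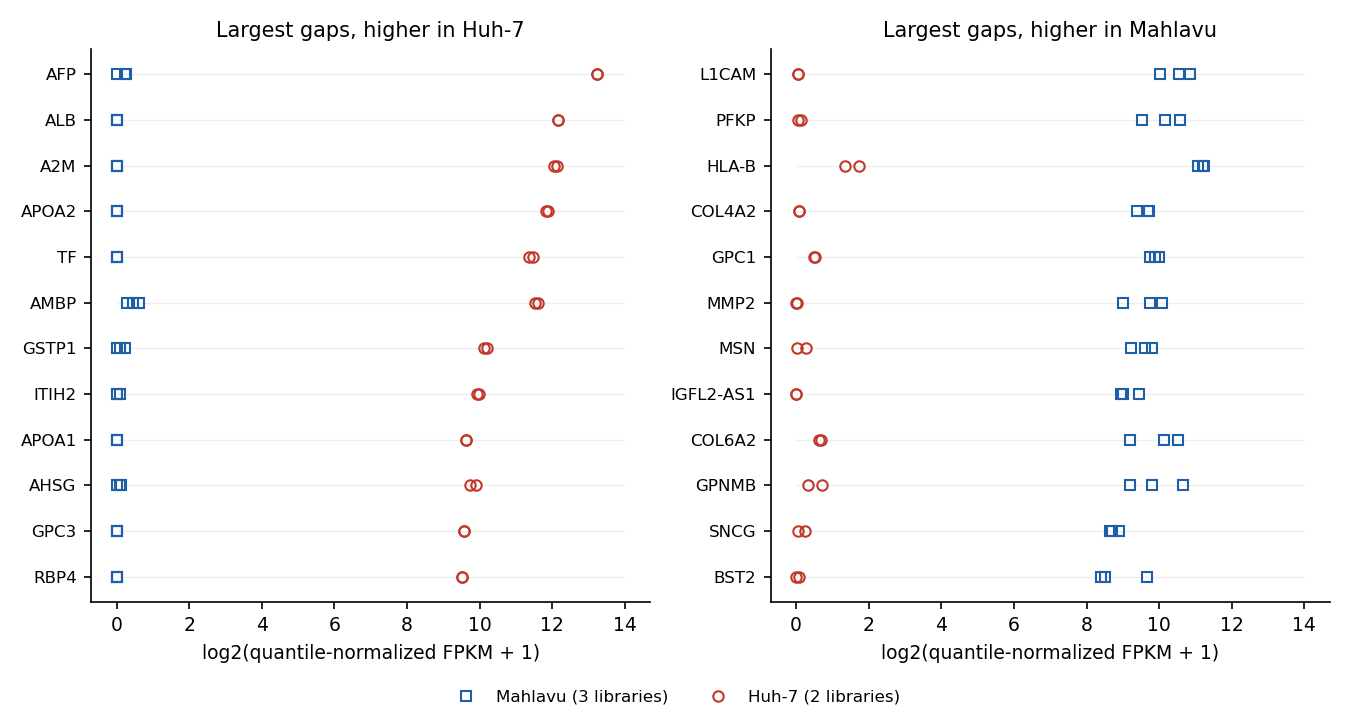
Level of each library, as log2(quantile-normalized FPKM + 1), for the 12 genes with the widest gap between nearest libraries in each direction. Red circles are the 2 Huh-7 libraries and blue squares the 3 Mahlavu libraries. Only genes whose lines do not overlap could be chosen.

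The promoters of ALB, AFP and FGB, which encodes the fibrinogen beta chain, are shown because all 3 genes were high in Huh-7 and at or near 0 in Mahlavu, and because each holds the letters GTTAAT, shown in capitals. The sequences are 300 bases from RefSeq (GRCh38.p14), from 250 before to 50 after the start site, 5′ to 3′ on the gene's strand. They lie at chr4:73404037-73404336, chr4:73435971-73436270 and chr4:154562730-154563029, all on the plus strand. In ALB and AFP the letters stand on the strand shown, beginning 61 and 132 bases before the start, and in FGB they stand on the opposite strand (ATTAAC as printed), 51 bases before it. FGB has 2 promoter entries, of which 1 is shown.
ALB: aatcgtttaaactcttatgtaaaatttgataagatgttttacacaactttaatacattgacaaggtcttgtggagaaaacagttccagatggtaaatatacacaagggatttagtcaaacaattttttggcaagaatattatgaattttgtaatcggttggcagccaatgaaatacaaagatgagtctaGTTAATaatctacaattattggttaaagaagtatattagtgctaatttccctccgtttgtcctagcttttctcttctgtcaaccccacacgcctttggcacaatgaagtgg
AFP: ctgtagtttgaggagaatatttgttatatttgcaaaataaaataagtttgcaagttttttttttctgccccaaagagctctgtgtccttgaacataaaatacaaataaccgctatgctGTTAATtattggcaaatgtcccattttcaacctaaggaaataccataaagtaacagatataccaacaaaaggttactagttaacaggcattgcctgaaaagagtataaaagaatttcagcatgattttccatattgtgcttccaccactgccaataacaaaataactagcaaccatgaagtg
FGB: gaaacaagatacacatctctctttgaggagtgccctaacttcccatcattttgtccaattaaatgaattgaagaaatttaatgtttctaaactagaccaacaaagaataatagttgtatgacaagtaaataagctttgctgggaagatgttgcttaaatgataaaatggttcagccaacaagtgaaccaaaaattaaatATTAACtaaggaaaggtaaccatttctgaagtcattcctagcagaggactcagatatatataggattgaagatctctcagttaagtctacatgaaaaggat

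Searched on both strands, GTTAAT occurred in at least 1 promoter entry of 8.27% of the 27305 genes in the RefSeq table. FOXA letters (TGTTTAC) occurred for 4.19% and HNF4 letters (CAAAGTCCA) for 0.472%. The motifs do not overlap in their letters. Only 31 of the 45 secreted plasma protein genes kept (68.9%) had a promoter entry, too few for a property of the list. Motif shares were counted for this list and others, but a comparison with other genes is void and is not given. A match is a description of letters and not of a bound site. Beside these promoters poor in CpG (4 CpG in ALB, 1 in AFP, 0 in FGB), GSTP1, high in Huh-7, and COL4A2, high in Mahlavu, have CpG-rich promoters. These are shown with each CpG in capitals, 36 in GSTP1 (chr11:67583562-67583861, plus strand) and 45 in COL4A2 (chr13:110307034-110307333, plus strand).
GSTP1: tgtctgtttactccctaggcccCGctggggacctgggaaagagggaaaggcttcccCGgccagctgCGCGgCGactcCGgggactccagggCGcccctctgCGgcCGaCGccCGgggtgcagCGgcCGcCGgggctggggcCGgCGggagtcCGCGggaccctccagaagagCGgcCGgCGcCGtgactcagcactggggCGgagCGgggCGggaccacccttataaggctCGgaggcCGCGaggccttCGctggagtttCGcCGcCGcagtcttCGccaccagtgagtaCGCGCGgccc
COL4A2: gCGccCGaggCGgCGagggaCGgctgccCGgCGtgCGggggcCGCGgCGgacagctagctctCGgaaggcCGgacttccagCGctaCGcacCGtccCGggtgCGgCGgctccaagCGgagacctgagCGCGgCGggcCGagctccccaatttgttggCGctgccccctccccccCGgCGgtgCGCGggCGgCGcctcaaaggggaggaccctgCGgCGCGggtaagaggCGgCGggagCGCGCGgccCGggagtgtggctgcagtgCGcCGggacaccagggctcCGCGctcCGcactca

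Hepatocyte transcription factors stood higher in Huh-7. Of 27 listed, 26 were kept, 22 were called higher in Huh-7 and 1 higher in Mahlavu, against 31.9% and 31.7% of all genes, and their median log2 difference was 3.47 against 0.02 for all genes. HNF4A, a nuclear receptor at the centre of the network, had 126 and 122 FPKM in Huh-7 and 0.0317, 0.095 and 0.0748 FPKM in Mahlavu, with 1 read in each Mahlavu library (limma adjusted p = 9.87e-07). FOXA2, a pioneer factor, had 49.3 and 53.5 FPKM in Huh-7 and 0, 0 and 0 FPKM in Mahlavu, and its relative FOXA3 had 118 and 123 FPKM in Huh-7 and 0.166, 0.124 and 0.158 FPKM in Mahlavu. NR1H4, the bile acid receptor FXR, had 50.9 and 54.7 FPKM in Huh-7 and 0, 0 and 0 FPKM in Mahlavu. Both Huh-7 libraries were far above Mahlavu for each of these 4, which follows in part from naming members by list order or wide gap. In the list, 7 factors had no read in any Mahlavu library. CEBPB, a C/EBP factor also used in acute-phase and inflammatory responses, was the exception with 30.9 and 33.2 FPKM in Huh-7 and 93.2, 121 and 156 FPKM in Mahlavu, a log2 difference of −1.88 ± 0.24 (SE). The other 3 kept factors were not called, with log2 differences of 0.30, 0.54 and 0.54.

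Secreted plasma proteins stood higher in Huh-7 almost without exception. Of 48 listed, 45 were kept and 43 were called higher in Huh-7 and 0 in Mahlavu, with a median log2 difference of 7.10. Their summed level was 31019.5 to 31729.9 FPKM in Huh-7 and 1017 to 1217 FPKM in Mahlavu, where 19 of the 45 had no read in any library. TTR, the thyroxine carrier transthyretin, had 296 and 261 FPKM in Huh-7 and 0, 0 and 0 FPKM in Mahlavu. RBP4, which carries retinol together with TTR, had 729 and 729 FPKM in Huh-7 and 0, 0 and 0 FPKM in Mahlavu and was at least 4744-fold higher in Huh-7. APOA1, the main protein of HDL, had 784 and 782 FPKM in Huh-7 and 0, 0 and 0 FPKM in Mahlavu, and AHSG, or fetuin-A, had 960.1 and 850.3 FPKM in Huh-7 and 0.0681, 0 and 0.0939 FPKM in Mahlavu. Most members were named for their wide gaps, so values at or near 0 in Mahlavu follow from that choice. Other members made up the summed level in Mahlavu. The 2 members kept but not called had log2 differences of 0.62 and 0.45.

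Enzymes and transporters of hepatic metabolism were either higher in Huh-7 or low in both lines, with few exceptions. Of 41 measured, 17 were not kept, among them the cytochromes CYP3A4, CYP2E1, CYP1A2, CYP7A1 and CYP8B1 of the adult liver and PCK1, an early enzyme of gluconeogenesis. These were singled out after their values were seen. Of the 24 kept, 21 were called higher in Huh-7 and 2 in Mahlavu, with a median of 3.77. HGD, an enzyme of tyrosine breakdown, had 303 and 308 FPKM in Huh-7 and 0, 0 and 0 FPKM in Mahlavu and was at least 1232-fold higher in Huh-7. ASGR2, a subunit of the asialoglycoprotein receptor, had 442 and 432 FPKM in Huh-7 and 0, 0 and 0 FPKM in Mahlavu. ALDH1A1, a retinal dehydrogenase, had 2154 and 2154 FPKM in Huh-7 and 0.122, 2 and 0.126 FPKM in Mahlavu, so the Mahlavu library labelled c-terminal of PSPC1 lay above the other Mahlavu libraries but far below Huh-7. CPS1, the first enzyme of the urea cycle, was less apart, with 31.6 and 26.1 FPKM in Huh-7 and 8.28, 5.35 and 8.29 FPKM in Mahlavu. Its partner ASS1 went the other way, with 180.4 and 205 FPKM in Huh-7 and 309.5, 385 and 235 FPKM in Mahlavu, a log2 difference of −0.66 (limma adjusted p = 0.0493). That call was lost without Huh-7 control (adjusted p = 0.269), Huh-7 HGF (0.178), Mahlavu mock (0.103) or the c-terminal library (0.0816), and with GC content taken out (0.17), in limma. UGT1A1, which conjugates bilirubin, had 0.663 and 1.05 FPKM in Huh-7 and 1.74, 3.52 and 2.28 FPKM in Mahlavu. Its call was lost in limma without either Huh-7 library (adjusted p = 0.184 and 0.106), with FPKM as deposited (0.0674) or scaled to the same sum (0.0615), with a pseudocount of 5 (0.0612) and without a filter (0.0618), and with edgeR on read counts (adjusted p = 0.0566).

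Genes of sterol synthesis and metallothioneins were also called more often in Huh-7. Of 39 genes of cholesterol and fatty acid synthesis, 23 were called higher in Huh-7 and 4 in Mahlavu, with a median of 0.91. Fewer were called higher in Huh-7 without either Huh-7 library. On read counts the calls were 18 and 7 with edgeR and with DESeq2, with medians of 0.57 and 0.58. HMGCS1, which makes HMG-CoA for cholesterol synthesis, had 957 and 1078 FPKM in Huh-7 and 120.0, 51.7 and 148 FPKM in Mahlavu. GPAM, an acyltransferase at the start of glycerolipid synthesis, had 32.9 and 37.4 FPKM in Huh-7 and 2.99, 2.95 and 2.95 FPKM in Mahlavu. Of 11 metallothionein genes, which encode small zinc- and copper-binding proteins (with their regulator MTF1), 9 were kept, 6 were called higher in Huh-7 and 2 in Mahlavu. Their summed level did not lean to Huh-7, with 303 to 382 FPKM in Huh-7 and 329 to 820 FPKM in Mahlavu. MT1G had 114 and 84.8 FPKM in Huh-7 and 0, 0 and 0 FPKM in Mahlavu and was at least 212-fold higher in Huh-7, and MT1M had 24.8 and 25.3 FPKM in Huh-7 and 0, 0 and 0 FPKM in Mahlavu. MT2A, the most abundant member in Mahlavu, had 99.4 and 87 FPKM in Huh-7 and 581, 292 and 735 FPKM in Mahlavu, a log2 difference of −2.41. The call of MT2A was lost without Huh-7 control or Huh-7 HGF (limma adjusted p = 0.0562 and 0.0663). The metallothionein genes themselves lie close together on chromosome 16 and are similar in sequence, so reads could be split between them.

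Oncofetal and liver progenitor genes were mostly higher in Huh-7, with 15 of 21 kept called higher there and 4 in Mahlavu and a median of 3.49. GPC3, a proteoglycan used as a marker of hepatocellular carcinoma, had 763 and 752 FPKM in Huh-7 and 0, 0 and 0 FPKM in Mahlavu and was at least 8885-fold higher in Huh-7. IGF2, the fetal growth factor, had 417 and 436 FPKM in Huh-7 and 0.0304, 0 and 0 FPKM in Mahlavu, and DLK1, a marker of hepatoblasts, had 226 and 228 FPKM in Huh-7 and 0.107, 0 and 0 FPKM in Mahlavu. The members higher in Mahlavu were of another kind. CD44, the hyaluronan receptor, had 27.6 and 29.1 FPKM in Huh-7 and 319, 496 and 312 FPKM in Mahlavu. SPP1, or osteopontin, had 7.54 and 7.08 FPKM in Huh-7 and 84.9, 87.2 and 413 FPKM in Mahlavu, with the library of the NLS mutation far above the other Mahlavu libraries. Without that library the log2 difference of SPP1 was −3.36 in place of −4.14, and without either Huh-7 library its call was lost (limma adjusted p = 0.0693 and 0.0734).

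**Figure D3:**
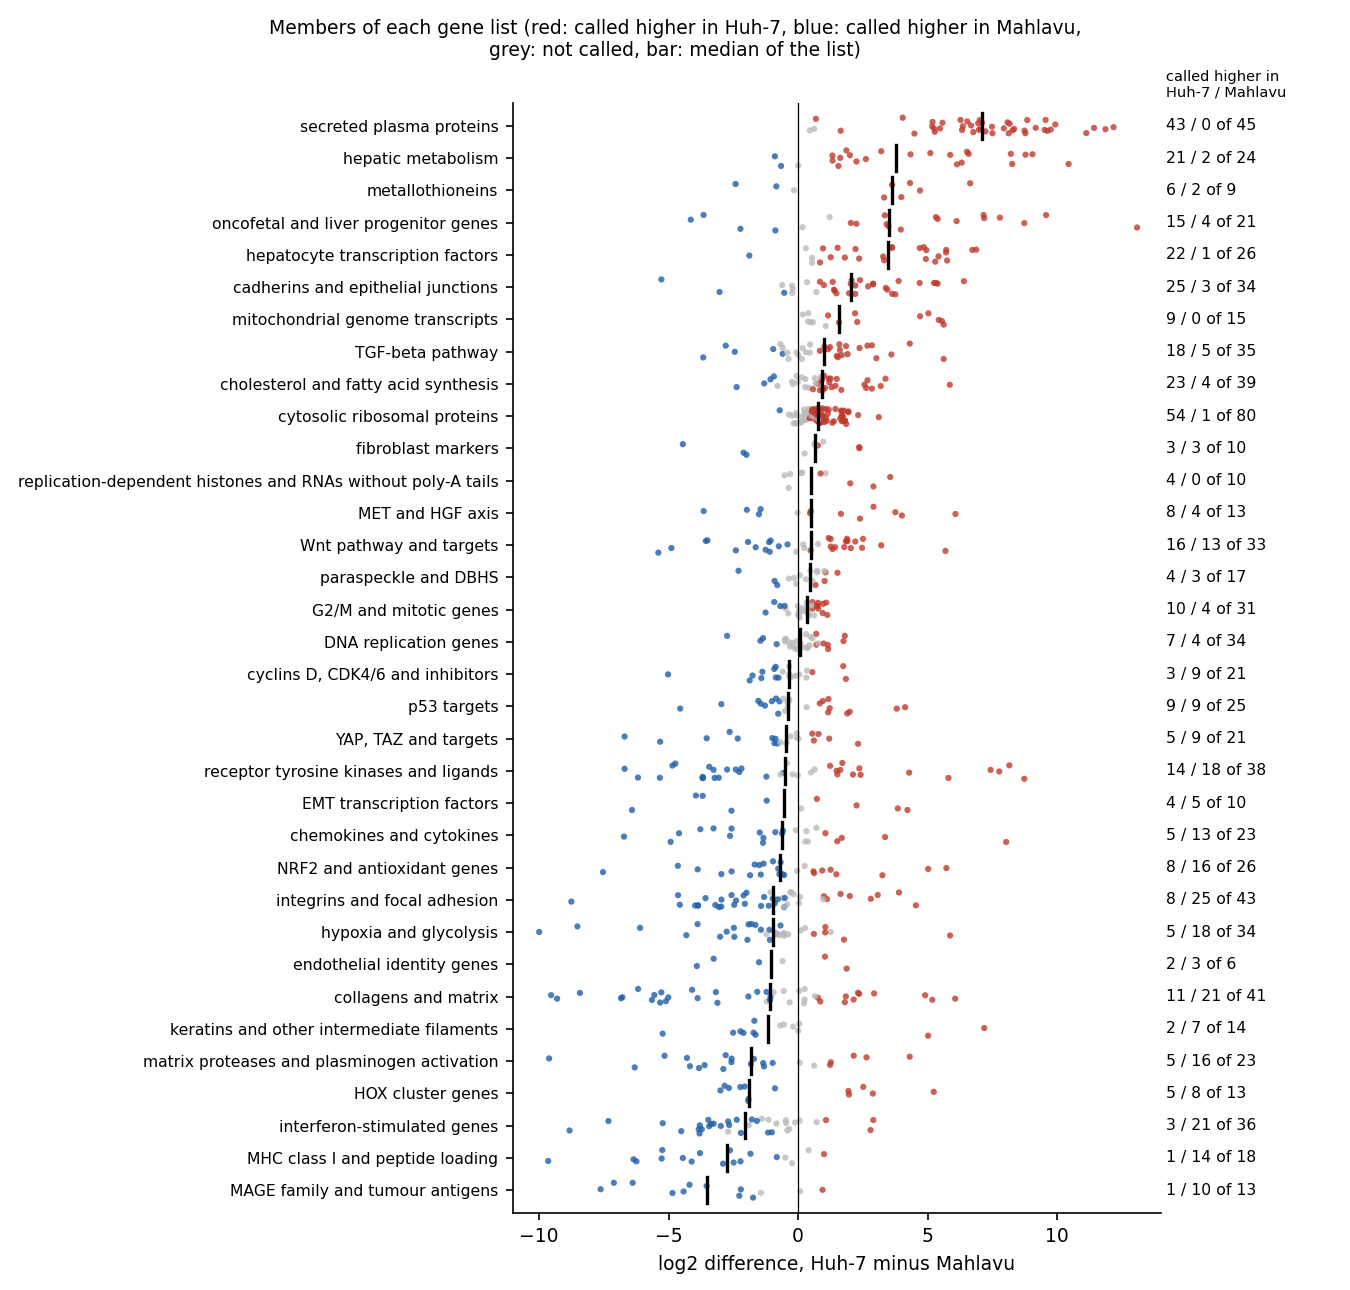
Log2 difference (Huh-7 minus Mahlavu) of each kept member of the 34 gene lists with at least 6 kept members, sorted by the list's median (black bar). Red points were called higher in Huh-7, blue points higher in Mahlavu and grey points not called by limma, the numbers at the right give both counts of the members kept, and lists run from secreted plasma proteins (median 7.10) to MAGE genes and tumour antigens (median −3.53).

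Epithelial junction genes stood higher in Huh-7. Of 40 cadherins and junction genes, 34 were kept, 25 were called higher in Huh-7 and 3 in Mahlavu, with a median of 2.05. CDH1, the epithelial E-cadherin, had 117 and 147 FPKM in Huh-7 and 0.382, 0.785 and 0.575 FPKM in Mahlavu, a log2 difference of 6.40 ± 0.19 (SE). EPCAM, an epithelial adhesion molecule of progenitors and tumours, had 39.8 and 48.5 FPKM in Huh-7 and 0, 0 and 0.246 FPKM in Mahlavu. CLDN6, a claudin of fetal tissues, had 50.7 and 43.8 FPKM in Huh-7 and 0.177, 0.274 and 0.166 FPKM in Mahlavu, and JUP, or plakoglobin, had 112 and 120.0 FPKM in Huh-7 and 2.11, 2.33 and 1.84 FPKM in Mahlavu. CDH2, or N-cadherin, overlapped between lines, with 19.5 and 23.2 FPKM in Huh-7 and 24.6, 29.7 and 20.6 FPKM in Mahlavu, and the Huh-7 value with HGF lay inside the Mahlavu range. CDH13, a cadherin without a transmembrane part, had 0 and 0.0599 FPKM in Huh-7 and 32, 46.4 and 39.5 FPKM in Mahlavu. Both Huh-7 libraries were thus low for CDH13 and high for E-cadherin, while N-cadherin ranges overlapped.

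Transcription factors of the epithelial-mesenchymal transition did not move one way as a list. Of 18, 10 were kept, 4 were called higher in Huh-7 and 5 in Mahlavu, and the median of −0.55 turned positive with FPKM scaled to the same sum (0.67), without a filter (0.013) and on read counts with edgeR (0.022) or DESeq2 (0.030). TWIST1, a helix-loop-helix factor of mesenchymal cells, had 0 and 0 FPKM in Huh-7 and 78.7, 77.5 and 96.9 FPKM in Mahlavu and was at least 378-fold higher in Mahlavu. TWIST2 had 0 and 0 FPKM in Huh-7 and 11.4, 23.2 and 11.2 FPKM in Mahlavu, and the zinc finger factor ZEB2 had 0.0295 and 0 FPKM in Huh-7 and 10.6, 11.5 and 14.2 FPKM in Mahlavu. SNAI2, or Slug, had 0.139 and 0.364 FPKM in Huh-7 and 5.56, 7.76 and 6.08 FPKM in Mahlavu. All 4 stood below 1 FPKM in both Huh-7 libraries. SNAI1, or Snail, overlapped between lines with 13.5 and 13.9 FPKM in Huh-7 and 7.74, 14.8 and 17 FPKM in Mahlavu. The members higher in Huh-7 included ESRP2, an epithelial splicing regulator, with 44 and 38.5 FPKM in Huh-7 and 1.31, 1.54 and 0.978 FPKM in Mahlavu, and ELF3, an epithelial ETS factor, with 20.1 and 30.6 FPKM in Huh-7 and 1.54, 1.08 and 0.0937 FPKM in Mahlavu.

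Among 25 keratins and other intermediate filament genes, 14 were kept, 2 were called higher in Huh-7 and 7 in Mahlavu, with a median of −1.17. Without Huh-7 control and without Huh-7 HGF the median was −1.17 and −1.09, but fewer members were called higher in Mahlavu in either case. On read counts 17 were kept, with 2 called higher in Huh-7 and 12 in Mahlavu with edgeR, and 2 and 11 with DESeq2. With a filter at 5 FPKM 9 were kept, 2 and 3 were called, and the median was −0.55. KRT8 and KRT18, the pair of simple epithelia and of hepatocytes, overlapped between lines. KRT8 had 865 and 813 FPKM in Huh-7 and 1386, 1302 and 487 FPKM in Mahlavu, and KRT18 had 197 and 174 FPKM in Huh-7 and 249.8, 243 and 95.3 FPKM in Mahlavu, with the library of the NLS mutation lowest in both. Without that library limma called KRT8 higher in Mahlavu (log2 difference −0.70, adjusted p = 0.01). KRT19, a keratin of bile ducts and progenitors, had 243 and 296 FPKM in Huh-7 and 0.86, 1.76 and 0.25 FPKM in Mahlavu. NES, or nestin, a filament of progenitor cells, was the other member higher in Huh-7, with 55.2 and 45.7 FPKM in Huh-7 and 0.427, 0.893 and 0.467 FPKM in Mahlavu. KRT80 had 0 and 0 FPKM in Huh-7 and 41, 58 and 20.2 FPKM in Mahlavu and was at least 387-fold higher in Mahlavu. VIM, or vimentin, the filament of mesenchymal cells, was present in both lines but lower in Huh-7, with 63.2 and 66.8 FPKM in Huh-7 and 266, 499 and 394 FPKM in Mahlavu.

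Matrix genes were more often higher in Mahlavu than in Huh-7. Of 51 collagens and matrix genes, 41 were kept, 11 were called higher in Huh-7 and 21 in Mahlavu, with a median of −1.08. COL4A1, the partner of COL4A2 in basement membranes, had 0.066 and 0.0768 FPKM in Huh-7 and 107, 107 and 139.5 FPKM in Mahlavu. COL6A2, a microfibril collagen, had 0.539 and 0.6 FPKM in Huh-7 and 588, 1462 and 1115 FPKM in Mahlavu, and COL5A1, a fibril collagen, had 0 and 0 FPKM in Huh-7 and 271, 603 and 243 FPKM in Mahlavu and was at least 3599-fold higher in Mahlavu. Its partner chain COL5A2 went the other way, with 134 and 128 FPKM in Huh-7 and 1.12, 0.763 and 1.06 FPKM in Mahlavu. FN1, the matrix glycoprotein fibronectin, which hepatocytes also secrete into plasma, had 1866 and 1866 FPKM in Huh-7 and 61.4, 63.2 and 60 FPKM in Mahlavu. FBLN1, another plasma and matrix protein, had 434 and 421 FPKM in Huh-7 and 8.71, 13.1 and 11.2 FPKM in Mahlavu, and COL1A2, a chain of type I collagen, had 157 and 171 FPKM in Huh-7 and 24.7, 29.2 and 42.1 FPKM in Mahlavu. Most of these genes were named for wide gaps in each direction, so their split between the lines follows from that choice.

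Integrin, focal adhesion and matrix protease genes were called more often in Mahlavu. Of 43 integrin and focal adhesion genes kept, 8 were called higher in Huh-7 and 25 in Mahlavu (median −0.98), and of 23 matrix protease and plasminogen genes kept, 5 and 16 (median −1.82). ITGA3, the alpha chain of a laminin receptor, had 2.66 and 2.96 FPKM in Huh-7 and 1153, 2195 and 1732 FPKM in Mahlavu. MYL9, a myosin light chain of contractile cells, had 9.35 and 12.4 FPKM in Huh-7 and 357, 195 and 306 FPKM in Mahlavu, and CAV1, the coat protein of caveolae, had 8.36 and 8.44 FPKM in Huh-7 and 154, 138 and 118 FPKM in Mahlavu. The members higher in Huh-7 included ITGA1, a collagen receptor chain, with 31.5 and 31.1 FPKM in Huh-7 and 4.35, 3.38 and 3.21 FPKM in Mahlavu, and FLNC, an actin crosslinker, with 22.4 and 25 FPKM in Huh-7 and 0.0734, 0.102 and 0 FPKM in Mahlavu. Among proteases, MMP2, a gelatinase, had 0.0113 and 0 FPKM in Huh-7 and 514, 1085 and 861 FPKM in Mahlavu. ADAM12, a membrane-bound metalloprotease, had 0.00596 and 0 FPKM in Huh-7 and 94.9, 70.7 and 71.8 FPKM in Mahlavu, and TIMP2, an inhibitor that also takes part in activating MMP2, had 2.32 and 3.07 FPKM in Huh-7 and 127, 131 and 131 FPKM in Mahlavu. Both Huh-7 libraries held at most 3.07 FPKM of these 3 genes. PLAT, or tissue plasminogen activator, had 0.379 and 0.568 FPKM in Huh-7 and 26.2, 36.3 and 22.3 FPKM in Mahlavu. MMP11 was the protease with the widest gap toward Huh-7, with 47.5 and 56.9 FPKM in Huh-7 and 1.62, 1.53 and 1.91 FPKM in Mahlavu.

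The study addresses PSPC1, the kinase PTK6, β-catenin and signalling by HGF and MET. PSPC1 (ENSG00000121390, chromosome 13, 19674752 to 19783019) had 59.1 and 49.1 FPKM in Huh-7 and 43.7, 33.1 and 22.1 FPKM in Mahlavu. The ranges did not overlap, but the difference of 0.74 ± 0.29 (SE, log2) missed the threshold in limma (adjusted p = 0.066), and without Mahlavu mock it passed it (log2 difference 0.97, adjusted p = 0.0247). Within Mahlavu the libraries labelled as overexpressing a part or a mutant of PSPC1 held less of it than mock, so these libraries are named by their labels only. PTK6, a nonreceptor tyrosine kinase of epithelia, had 0.216 and 0.201 FPKM in Huh-7 and 8.27, 19.7 and 17 FPKM in Mahlavu, from 15 and 13 reads in Huh-7. It was higher in Mahlavu by 3.64 ± 0.35 on the log2 scale (limma adjusted p = 2.39e-04). CTNNB1, which encodes β-catenin, had 465 and 444 FPKM in Huh-7 and 103, 86 and 105 FPKM in Mahlavu, higher in Huh-7 by 2.21 ± 0.16. MET, the HGF receptor, was close between lines, with 53.3 and 55.7 FPKM in Huh-7 and 41.5, 36.1 and 40.6 FPKM in Mahlavu. Its log2 difference of 0.46 passed the threshold in limma (adjusted p = 0.0366), but not without Huh-7 control (0.0908) or Huh-7 HGF (0.12), nor with GC content taken out (0.31). On read counts it missed it as well, with edgeR (adjusted p = 0.323) and DESeq2 (0.315). HGF itself was not kept, with 0.0122 and 0.0176 FPKM in Huh-7 and 0 reads in each Mahlavu library.

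Of 13 genes of the MET and HGF axis kept, 8 were called higher in Huh-7 and 4 in Mahlavu, with a median of 0.49. HPN, or hepsin, a membrane protease that activates HGF, had 91.8 and 124 FPKM in Huh-7 and 0.438, 0.813 and 0.577 FPKM in Mahlavu. STAT3, a transcription factor downstream of many receptors, had 60.6 and 61.4 FPKM in Huh-7 and 177, 166 and 162 FPKM in Mahlavu. Of 17 paraspeckle genes kept, 4 were called higher in Huh-7 and 3 in Mahlavu, with a median of 0.48. On read counts the calls were 2 and 5 with edgeR and 3 and 5 with DESeq2, and without control and without HGF of Huh-7 they were 0 and 2, and 1 and 2. By ranges that did not overlap, 10 of the 17 were higher in Huh-7 and 4 in Mahlavu, against 39.9% and 39% of all genes. NONO, the close relative of PSPC1, had 177 and 174 FPKM in Huh-7 and 385, 349 and 268 FPKM in Mahlavu, and its call was lost without either Huh-7 library (limma adjusted p = 0.0793 and 0.085). NEAT1, the RNA scaffold of paraspeckles, had 58.4 and 64.3 FPKM in Huh-7 and 45.3, 23.2 and 23.1 FPKM in Mahlavu. The call of NEAT1 was lost in limma without Huh-7 control (adjusted p = 0.169), Huh-7 HGF (0.209), the c-terminal library (0.0747) or the NLS mutation library (0.0597), and with GC content taken out (0.0967).

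Receptor tyrosine kinases and their ligands were called in both directions, with 14 of 38 kept called higher in Huh-7 and 18 in Mahlavu (median −0.50). FGFR4, the receptor for the bile acid hormone FGF19 in liver, had 651 and 638 FPKM in Huh-7 and 1.42, 1.53 and 0.927 FPKM in Mahlavu. FGFR3 had 259.5 and 261 FPKM in Huh-7 and 0.123, 0.454 and 0.0719 FPKM in Mahlavu, and ERBB3, a heregulin receptor that pairs with ERBB2, had 249.6 and 244 FPKM in Huh-7 and 0.366, 0.416 and 0.549 FPKM in Mahlavu. EGFR and ERBB2 were present in both lines and higher in Huh-7, by 1.51 and 1.63 on the log2 scale. AXL, a receptor often found in mesenchymal cancer cells, had 0.107 and 0.103 FPKM in Huh-7 and 168, 115 and 75.7 FPKM in Mahlavu, and its ligand GAS6 had 0.0059 and 0.0148 FPKM in Huh-7 and 26.4, 28 and 23.5 FPKM in Mahlavu. PDGFA, a growth factor for mesenchymal cells, had 0.386 and 0.676 FPKM in Huh-7 and 44.4, 79.8 and 62.5 FPKM in Mahlavu, and IGFBP7, a secreted IGF-binding protein, had 0.769 and 0.605 FPKM in Huh-7 and 129, 135 and 102 FPKM in Mahlavu. FGFR3, FGFR4 and ERBB3 stood far above Mahlavu in both Huh-7 libraries, and AXL and GAS6 the other way, near 0 in Huh-7. Most genes of this list were named for wide gaps in each direction, so such separation follows from that choice.

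Genes of the Wnt pathway were called in both directions, 16 of 33 kept higher in Huh-7 and 13 in Mahlavu (median 0.48). GLUL, glutamine synthetase and a β-catenin target in liver, had 438 and 483 FPKM in Huh-7 and 44.4, 53.2 and 49.8 FPKM in Mahlavu. LGR5, a stem cell receptor and target of the pathway, had 3.23 and 2.96 FPKM in Huh-7 and 0, 0 and 0 FPKM in Mahlavu. DKK1, a secreted inhibitor, had 179.6 and 151 FPKM in Huh-7 and 6.33, 1.67 and 0.7 FPKM in Mahlavu, and WNT5B, a ligand, had 0.863 and 0.923 FPKM in Huh-7 and 62.2, 79.4 and 97.9 FPKM in Mahlavu. FZD2, a receptor, had 1.47 and 1.16 FPKM in Huh-7 and 85.8, 71.3 and 50 FPKM in Mahlavu. These 5 were picked by list order or wide gap, so they do not show a split by role within the pathway, which was not tested. In the TGF-β pathway, 18 of 35 genes kept were called higher in Huh-7 and 5 in Mahlavu (median 1.02). The ligand TGFB1 was the reverse, with 51.1 and 52.6 FPKM in Huh-7 and 415, 1052 and 683 FPKM in Mahlavu, as was TGFB2, with 1.39 and 1.32 FPKM in Huh-7 and 15.4, 8.9 and 12 FPKM in Mahlavu. FST, the activin antagonist follistatin, had 73.7 and 59.4 FPKM in Huh-7 and 0.602, 0.119 and 0.437 FPKM in Mahlavu, and BMP2, a ligand of the BMP branch, had 23.2 and 24.1 FPKM in Huh-7 and 0.148, 0.171 and 0.433 FPKM in Mahlavu.

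Of 21 genes of YAP, TAZ and their targets, 5 were called higher in Huh-7 and 9 in Mahlavu (median −0.47), or 3 in Mahlavu without either Huh-7 library. The targets CCN1 and CCN2, which encode related matrix-associated signalling proteins, moved apart. CCN1 had 8.54 and 7.8 FPKM in Huh-7 and 328, 331 and 449 FPKM in Mahlavu, while CCN2 had 42.8 and 39.5 FPKM in Huh-7 and 9.94, 6.17 and 6.81 FPKM in Mahlavu.

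Antigen presentation separated the lines toward Mahlavu. Of 18 genes of MHC class I and peptide loading, 14 were called higher in Mahlavu and 1 in Huh-7, with a median of −2.76. HLA-F, a non-classical heavy chain, had 0.685 and 0.554 FPKM in Huh-7 and 132, 137 and 125 FPKM in Mahlavu. NLRC5, the transactivator of class I genes, had 0.0519 and 0.0431 FPKM in Huh-7 and 92.4, 77.7 and 66.3 FPKM in Mahlavu. PSMB9, a subunit of the immunoproteasome, had 2.21 and 2.44 FPKM in Huh-7 and 133, 136 and 107 FPKM in Mahlavu. The 3 members that were not called had log2 differences of −0.23, 0.41 and −0.49.

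Interferon-stimulated genes were also higher in Mahlavu, 21 of 36 kept against 3 in Huh-7 (median −2.06, and 12 in Mahlavu without either Huh-7 library), and here the Mahlavu libraries differed among themselves. IFI27 had 0.783 and 0.677 FPKM in Huh-7 and 798, 165 and 157 FPKM in Mahlavu, so mock lay well above the other Mahlavu libraries, and without mock its log2 difference was −6.52 in place of −7.32. IFI6 had 13.2 and 14.6 FPKM in Huh-7 and 601, 37.7 and 37.8 FPKM in Mahlavu. It was not called with all libraries (limma adjusted p = 0.0915), was called without mock (log2 difference −1.38, adjusted p = 0.0017), and reached log2 differences of −3.31 and −3.35 without the c-terminal and the NLS mutation library. BST2, or tetherin, which holds budding viruses at the membrane, had 0.046 and 0 FPKM in Huh-7 and 804, 334 and 364 FPKM in Mahlavu. MX2, an antiviral GTPase, went the other way, with 70.2 and 76.8 FPKM in Huh-7 and 24.9, 6.22 and 4.3 FPKM in Mahlavu. Its log2 difference of 2.90 became 3.58 without Mahlavu mock, and its call was lost without either Huh-7 library (limma adjusted p = 0.12 and 0.131). Among chemokines and cytokines, 5 of 23 kept were called higher in Huh-7 and 13 in Mahlavu, or 8 in Mahlavu without Huh-7 control and 7 without Huh-7 HGF. CCL20, a chemokine for lymphocytes and dendritic cells, had 389 and 230.0 FPKM in Huh-7 and 0.337, 0 and 0.14 FPKM in Mahlavu. CCL5, a T-cell chemokine, had 0.0513 and 0.0278 FPKM in Huh-7 and 39.4, 167 and 192 FPKM in Mahlavu, a log2 difference of −6.72 that was −7.41 without mock. CSF1, the macrophage growth factor, had 17.5 and 20.6 FPKM in Huh-7 and 442, 632 and 787 FPKM in Mahlavu.

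Glycolytic and antioxidant genes leaned to Mahlavu. Of 34 hypoxia and glycolysis genes, 5 were called higher in Huh-7 and 18 in Mahlavu (median −0.98), with 9 in Mahlavu without Huh-7 control and 10 without Huh-7 HGF. LDHB, a lactate dehydrogenase subunit, had 0.375 and 0.217 FPKM in Huh-7 and 697, 296 and 509.9 FPKM in Mahlavu, and HK1, a hexokinase, had 1.98 and 2.45 FPKM in Huh-7 and 156, 254 and 265 FPKM in Mahlavu. ALDOC, the aldolase best known from brain, was the reverse with 70.5 and 72 FPKM in Huh-7 and 0.246, 0.382 and 0.114 FPKM in Mahlavu. PFKP, LDHB and HK1 were each near 0 or low in both Huh-7 libraries. Of 26 NRF2 and antioxidant genes, 8 were called higher in Huh-7 and 16 in Mahlavu (median −0.70), and 8 in Mahlavu without either Huh-7 library. GPX2, a glutathione peroxidase, had 33 and 40.9 FPKM in Huh-7 and 0, 0.15 and 0.375 FPKM in Mahlavu. The aldo-keto reductases split. AKR1C1 had 418 and 459 FPKM in Huh-7 and 28.2, 67 and 48.4 FPKM in Mahlavu, AKR1C3 had 2.24 and 3.8 FPKM in Huh-7 and 502, 666 and 1153 FPKM in Mahlavu, and AKR1B10 had 7.87 and 8.94 FPKM in Huh-7 and 150.0, 139 and 123 FPKM in Mahlavu. AKR1C genes are close paralogs, and their values are uncertain where reads match several of them.

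Of 27 genes of the MAGE family and other tumour antigens, many of which are normally silent outside the germ line, 13 were kept. Of these 13, 10 were called higher in Mahlavu and 1 in Huh-7 (median −3.53). For 7 of the 13 no read was found in either Huh-7 library, so they passed the filter through Mahlavu alone. Without a filter 23 entered, 11 were called higher in Mahlavu and 1 in Huh-7, and the median was −1.20. MAGEA3 had 0 and 0 FPKM in Huh-7 and 154, 120.4 and 139 FPKM in Mahlavu and was at least 942-fold higher in Mahlavu, though MAGEA3 and MAGEA6 are nearly identical and their split is uncertain. MAGED1, a broadly expressed member, had 0.0202 and 0.014 FPKM in Huh-7 and 168, 189.7 and 247 FPKM in Mahlavu. HOX genes, which record body position, were called in both directions, 5 of 13 kept in Huh-7 and 8 in Mahlavu. Their median was −1.91. With FPKM scaled to the same sum, 17 were kept and the calls were 8 in Huh-7 and 7 in Mahlavu. Among genes of at least 5 FPKM only 2 were kept, 1 called in each direction, with a median of 1.65. HOXC10 had 58.6 and 64 FPKM in Huh-7 and 0.956, 0.713 and 0.36 FPKM in Mahlavu, while HOXD10 had 0 and 0 FPKM in Huh-7 and 4.54, 5.27 and 6.43 FPKM in Mahlavu and was at least 26.7-fold higher in Mahlavu.

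A smaller share of mitotic and DNA replication genes than of all genes was called higher in Mahlavu, with no test of that difference. Of 31 G2/M and mitotic genes, 10 (32.3%) were called higher in Huh-7 and 4 (12.9%) in Mahlavu (median 0.33). Of 34 DNA replication genes, 7 (20.6%) and 4 (11.8%) were called, against 31.9% and 31.7% of all genes. The mitotic share called higher in Huh-7 was thus close to that of all genes. The mitotic calls were 5 and 4 with FPKM as deposited or scaled to the same sum. With edgeR and with DESeq2 they were 5 and 6, with medians of 0.052 and 0.066. Without Huh-7 control and without Huh-7 HGF the mitotic median was 0.36 and 0.27, but fewer mitotic genes were called in each direction. The replication calls turned to 5 and 7 with edgeR and 5 and 8 with DESeq2, and fell to 2 and 2 without Huh-7 control and 2 and 1 without Huh-7 HGF. The replication median of 0.08 turned negative as deposited (−0.069), scaled to the same sum (−0.063), with edgeR (−0.19) and with DESeq2 (−0.17). CENPA, the histone of centromeres, had 17.3 and 16.8 FPKM in Huh-7 and 35.8, 46.3 and 44.8 FPKM in Mahlavu, and GINS3, a subunit of the replicative helicase, had 3.77 and 3.45 FPKM in Huh-7 and 34.4, 32.5 and 23.6 FPKM in Mahlavu. Among 21 cyclin D, CDK and inhibitor genes kept, 3 were called higher in Huh-7 and 9 in Mahlavu, or 5 in Mahlavu without either Huh-7 library. CCND3 had 4.68 and 5.37 FPKM in Huh-7 and 138, 232 and 227 FPKM in Mahlavu. CCND1, another D cyclin, had 164 and 151 FPKM in Huh-7 and 48.5, 61.1 and 27.1 FPKM in Mahlavu, and its call was lost without either Huh-7 library (limma adjusted p = 0.0853 and 0.0758). CDKN1B, or p27, had 114 and 132 FPKM in Huh-7 and 37.5, 29.2 and 42.6 FPKM in Mahlavu, and CDKN2A, which encodes p16 and ARF, had 132 and 126 FPKM in Huh-7 and 317, 398 and 331 FPKM in Mahlavu. Of 25 p53 targets kept, 9 were called in each direction (median −0.40).

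Transcripts of ribosomal proteins and of the mitochondrial genome were higher in Huh-7, and so was a noncoding RNA without a poly-A tail. Of 80 genes of cytosolic ribosomal proteins kept, 54 were called higher in Huh-7 and 1 in Mahlavu, with a median of 0.77. Without Huh-7 control 19 were called higher in Huh-7 and without Huh-7 HGF 18, with 0 in Mahlavu, and the median was 0.77 and 0.73. RPS12 had 1462 and 1561 FPKM in Huh-7 and 381, 241 and 299.9 FPKM in Mahlavu and RPS23 had 105 and 98.9 FPKM in Huh-7 and 12.8, 10.4 and 9.69 FPKM in Mahlavu. Of 15 transcripts of the mitochondrial genome, 9 were called higher in Huh-7 and 0 in Mahlavu, with a median of 1.58, and together they took 4.31% and 4.62% of FPKM in Huh-7 and 1.07% to 2.06% in Mahlavu. They did not move as one. MT-ND5, MT-ND6, MT-CYB, MT-RNR1 and MT-RNR2 had log2 differences of 4.70 to 5.61, and the other 10 of 0.18 to 2.28. MT-CO1, a subunit of cytochrome oxidase, overlapped between lines with 5757 and 6351 FPKM in Huh-7 and 6351, 2944 and 5233 FPKM in Mahlavu, but was called higher in Huh-7 in limma with FPKM as deposited (adjusted p = 0.0472) or scaled to the same sum (0.0491), and on read counts with edgeR (0.0314) and DESeq2 (0.00898), while MT-ND5, a subunit of complex I, had 932 and 1038 FPKM in Huh-7 and 22.2, 15.6 and 23.1 FPKM in Mahlavu. The labels give poly-A selection for both lines. Of 10 such histone and other RNAs kept, 4 were called higher in Huh-7 and 0 in Mahlavu (2 and 0 without either Huh-7 library), and the list summed to 1814 to 1883 FPKM in Huh-7 and 274 to 436 FPKM in Mahlavu. Most of the Huh-7 sum was RN7SL2, the RNA of the signal recognition particle, with 1386 and 1493 FPKM in Huh-7 and 79.9, 131 and 172 FPKM in Mahlavu. Its part in the ribosomal and mitochondrial differences was not tested.

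The 5 SK-Hep1 libraries of the series, from another liver line, deposited together with Mahlavu and in the same form, were placed beside both lines after quantile normalization over all 10. Their labels give mock control, overexpression of PSPC1 alone or with PTK6, and overexpression of a PSPC1 YF mutation alone or with PTK6, 1 library each. Of the 4582 genes called higher in Huh-7, SK-Hep1 lay wholly on the Mahlavu side of the midpoint between lines for 3070 (67%), on the Huh-7 side for 555 (12.1%) and across it for 957 (20.9%). Of the 4552 higher in Mahlavu it lay on the Mahlavu side for 2603 (57.2%) and on the Huh-7 side for 896 (19.7%). Shared deposit and likeness of the lines cannot be told apart in these counts. Most called hepatic genes had SK-Hep1 on the Mahlavu side. Among hepatocyte transcription factors 21 lay there, 1 on the Huh-7 side and 1 across, among secreted plasma proteins 42, 1 and 0, and in hepatic metabolism 18, 4 and 1. ALB was at 0 in all 5 SK-Hep1 libraries and HNF4A at 0 to 0.151 FPKM. On the Mahlavu side as well were L1CAM at 863 to 1492 FPKM and PFKP at 1109 to 1611 FPKM. For other genes SK-Hep1 lay on the Huh-7 side of the midpoint, which does not mean at the level of Huh-7. GSTP1 stood at 281 to 382 FPKM in SK-Hep1, FGFR4 at 44.1 to 72.1 FPKM and FCGRT, the neonatal Fc receptor, at 29.5 to 98.2 FPKM, against 0 to 1.14 FPKM for these 3 genes in Mahlavu on the same scale. In the other direction MMP2 stood at 0.141 to 1.76 FPKM in SK-Hep1, SNCG, a synuclein, at 6.14 to 16.5 FPKM, CHI3L1, a secreted chitinase-like protein, at 0 to 1.57 FPKM and AKR1C3 at 0.768 to 3.69 FPKM, against 220.4 to 1288 FPKM for these 4 genes in Mahlavu. GPNMB, a membrane glycoprotein, and CD70, a ligand of the TNF family, lay across the midpoint.

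**Figure D4:**
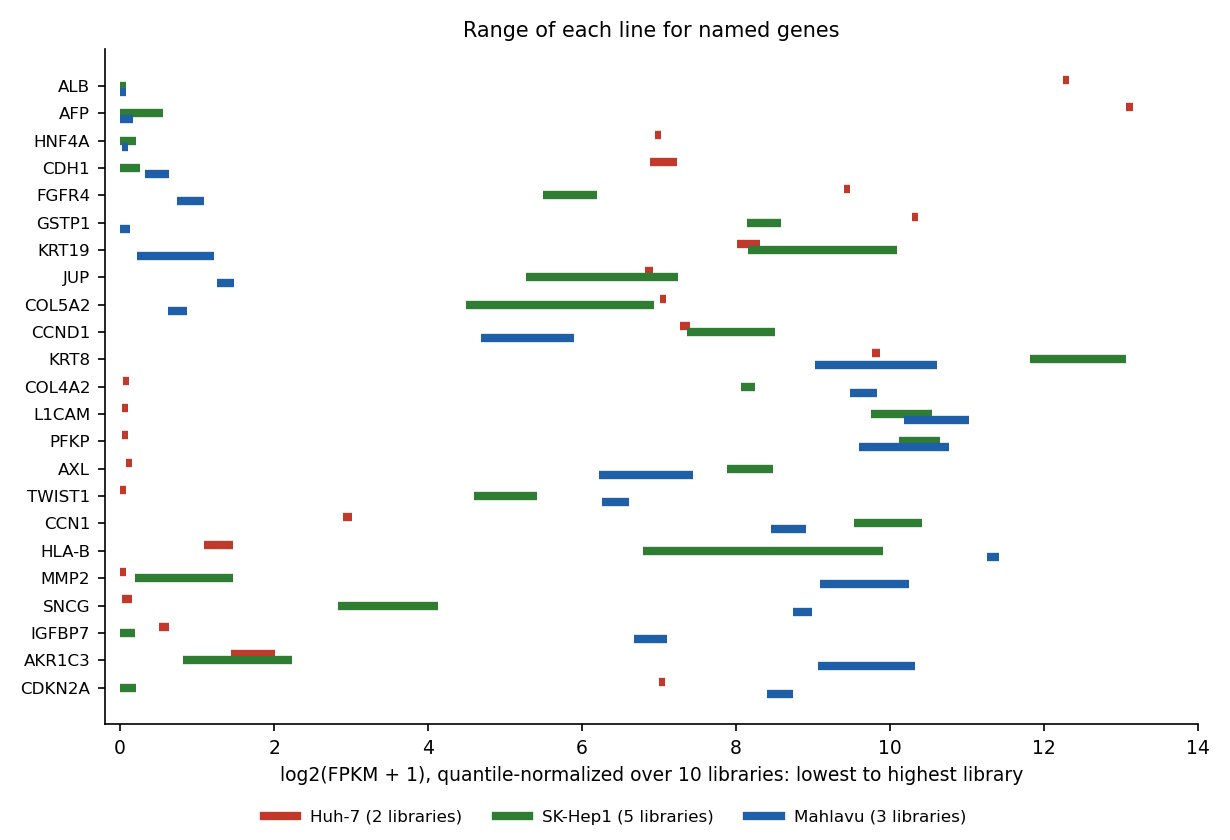
Range from the lowest to the highest library of each line, as log2(FPKM + 1) after quantile normalization over 10 libraries, for 23 of the named genes, with very narrow ranges drawn at a minimum width. SK-Hep1 (green) lies on the Mahlavu (blue) side of the midpoint for ALB, L1CAM and PFKP. It lies on the Huh-7 (red) side for GSTP1, MMP2 and AKR1C3, and above both lines for KRT8.

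The difference between lines was uneven along the genome. On chromosome 16, 703 genes were kept, 13.5% were called higher in Huh-7 and 52.9% in Mahlavu, and the median log2 difference was −0.68. Chromosome 12 was the widest in the other direction, with a median of 0.51 over 764 genes and 47.9% called higher in Huh-7 against 19.5% in Mahlavu. Chromosomes 15 and 3 followed with medians of 0.39 and 0.33, and chromosome 21 had −0.33. The median GC content of genes on chromosome 16 was 55.3%, among the higher of the autosomes, and GC content moved with the difference between lines. With GC content and length taken out, the medians were −0.48 for chromosome 16, 0.36 for chromosome 12, 0.23 for chromosome 15, 0.21 for chromosome 3 and −0.36 for chromosome 21. Chromosome 22 went from 0.10 to 0.29, then second to chromosome 12, while chromosomes 13 and 10 went from −0.06 and −0.08 to −0.28 and −0.25. On chromosome 19, richer still in GC at 58.2%, the median went from −0.19 to 0.01. Genes of chromosome 16 were called in both directions all the same, CDH1 and most metallothioneins higher in Huh-7 and MMP2 higher in Mahlavu.

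**Figure D5:**
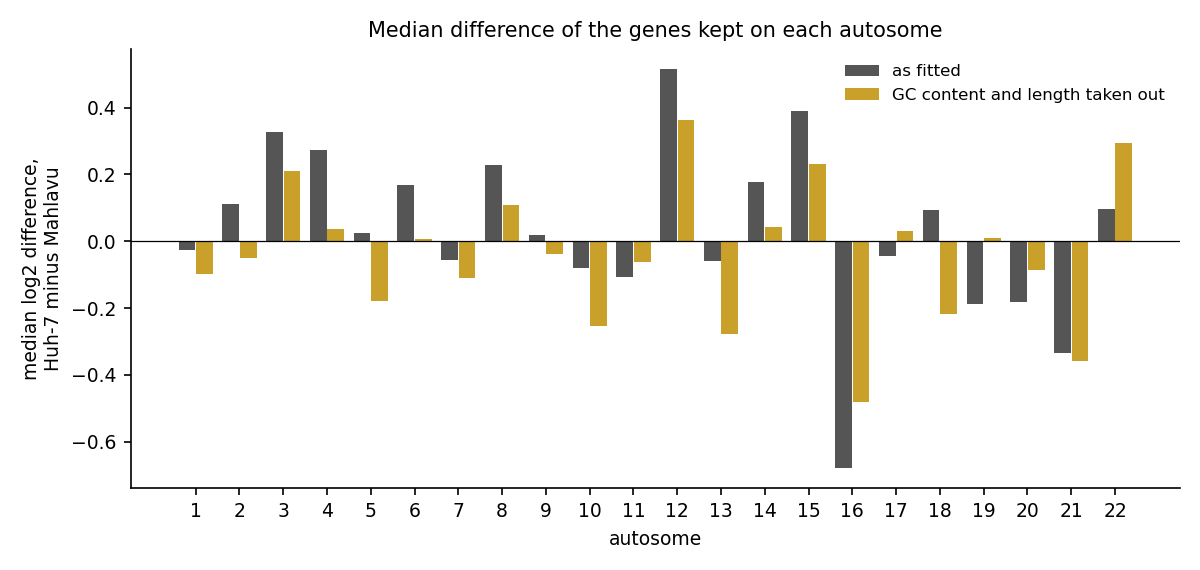
Median log2 difference (Huh-7 minus Mahlavu) of the genes kept on each autosome, as fitted (grey bars) and with GC content and length of the longest transcript taken out (yellow bars). Chromosome 16 is lowest (−0.68 and −0.48) and chromosome 12 highest (0.51 and 0.36) in both.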

How the data were processed

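RNA-Seq of 2 Huh-7 and 3 Mahlavu libraries was used, with 5 SK-Hep1 libraries for comparison. The authors deposited, per gene, read counts and FPKM for Mahlavu and SK-Hep1, and FPKM without counts for Huh-7. The submitters' processing notes name TopHat2 2.0, HTSeq 0.6.1, edgeR and GRCh38.p12, while the study's methods name another build, ribosomal RNA removal in place of poly-A selection, and quantile normalization, which the deposited FPKM do not show. The treatment field names HGF for both Huh-7 libraries, and groups follow the genotype labels. Counts for Huh-7 were recovered from FPKM and transcript lengths (100% whole within 0.02 reads, 99.6% of reads). Depths are given in the text, and lower depth widens the error of low genes. Reads carry no molecular identifiers, so limits from 3 reads per library cover counting error only.

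FPKM were quantile-normalized over the 5 libraries, and 14367 genes with a mean of the line means of at least 1 FPKM were kept. limma 3.58.1 (R 4.3.3, two-sided, Benjamini-Hochberg over all genes kept) was run on log2(FPKM + 1), a scale that understates the differences of low genes. A gene was called at an adjusted p under 0.05. A gap is the log2 difference between the nearest libraries of the lines. For counts, edgeR 4.0.16 and DESeq2 1.42.0 were run as alternatives, beside other scalings, pseudocounts, filters and left-out libraries. A variance trend and the removal of GC content and length were added after the data had been seen. The limma fit was also run on simulated counts with 200 changed genes. Those counts held no effect of condition, GC content or deposit, so that run says nothing about such effects. Figures and tables were made in Python 3.11.15.

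Named genes were the 12 with the widest gaps in each direction among called, non-overlapping genes of at least 10 FPKM, then in each of 36 lists the first 2 and up to 4 with the widest gap in each direction, then genes of the study and the widest gaps for each place of SK-Hep1. SERPINA1, FGB, HMGCS1, GPAM, GPX2 and the enzymes that were not kept were named beside them, after their values had been seen. Gene members and lists were chosen with earlier results of these data known. Some genes of these lists are not reported here by name.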

Additional observations from a re-analysis of the deposited data

How the results depend on the processing

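Of 144 genes named with a fitted value, 129 kept their direction and their side of the threshold, and 141 their direction. This holds over those of the 16 other settings in which a gene was fitted. Most of these genes were named for wide gaps in the same data, so their stability follows in part from that choice. Of 34 lists, 31 kept the direction of their median. Without 1 library in turn, calls ranged from 2758 (without Huh-7 HGF) to 4770 (without the NLS mutation library) higher in Huh-7 and from 2571 to 4801 (the same libraries) higher in Mahlavu. With 1 Huh-7 library left, that library is assumed to vary like Mahlavu. The genes that kept their call numbered 5485 of 9005 without Huh-7 control and 5290 of 8996 without Huh-7 HGF, with 0 opposite calls in either. Genes whose ranges did not overlap, higher in Huh-7, rose to 9734 without a filter, since more genes entered. Gaps of at least 2-fold fell to 1546 and 1481 with a pseudocount of 5, which shrinks low genes. FPKM as deposited and scaled to the same sum moved the median of all genes from 0.02 to 0.12 and 0.15, and called 4600 and 4968 genes higher in Huh-7 and 4080 and 4217 in Mahlavu.

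The median of transcription factors of the epithelial-mesenchymal transition turned to 0.67 with FPKM scaled to the same sum, 0.013 without a filter, 0.022 with edgeR and 0.030 with DESeq2. The HOX median turned to 1.65 at 5 FPKM, a filter that 2 genes of the list pass. The DNA replication median turned to −0.069 as deposited, −0.063 scaled, −0.19 with edgeR and −0.17 with DESeq2. KRT8 turned to 0.10 with GC content taken out. KRT18 turned to −0.25 as deposited, −0.24 scaled, −0.50 with edgeR and −0.49 with DESeq2. Without 1 library, SNAI1 ranged from −0.20 to 0.31, KRT8 from −0.70 to 0.077 and KRT18 from −0.42 to 0.28. The cause of these reversals was not tested. No paired analysis was possible because the lines share no replicate numbers in the labels. With a variance trend in limma, 4574 and 4553 genes were called. Genes with few reads in one line have the least certain size of difference.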
